A study of Homo sapiens with 4 samples.

Results

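A set of 10 immediate early genes was followed through TARBP2 knockdown: EGR1, the AP-1 subunit genes FOS, FOSL1, FOSL2, JUN, JUNB and JUND, the immediate early response genes IER2 and IER3, and MYC. They were chosen by name, with earlier results of these data known. They are 10 of the 19172 genes that a probe of the array could be tied to. Of its 47323 probes, 11 report on them (MYC has 2). The cells were MDA-LM2 shDicer: MDA-LM2 is a line selected for metastasis from MDA-MB-231, an established human breast cancer line, and here it also carried a short hairpin against Dicer. Every array was of these cells, so the hairpin is common to both groups and its own effect was not measured. The knockdown group was 1 array of cells transfected with siTARBP2-1 and 1 of cells transfected with siTARBP2-2, which the design text calls independent siRNAs. The control group was 2 arrays of cells transfected with siControl, a control siRNA in the labels, although the design text speaks of mock transfection. RNA was taken 48 h after transfection with a lipid reagent and hybridised to Illumina BeadChips. The sources do not say whether arrays of a group were grown as separate cultures. The p-values cover array-to-array spread within a group. In the knockdown group that spread includes any difference between siTARBP2-1 and siTARBP2-2, and the spread may otherwise be only technical. In a bulk sample, fewer cells that express a gene and less of its RNA in each cell cannot be told apart.

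Immediate early genes are switched on within minutes of a growth factor or stress signal, without new protein synthesis, and their messages and proteins are short-lived. Growth factor signals reach many of them through RAS, the MAP kinases and the serum response factor SRF, which binds the CArG box together with ternary complex factors such as ELK1 and ELK3. FOS and JUN family proteins pair through leucine zippers to form AP-1, EGR1 is a zinc finger factor restrained by the corepressors NAB1 and NAB2, and MYC pairs with MAX to bind the E-box. In MDA-MB-231 cells the MAP kinase pathway is active without added growth factor.

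Between 39.1% and 40.8% of probes were detected on an array (detection p under 0.01), and the median signal lay between 68.1 and 71.0. The number of arrays limits the precision. All 8 listed markers of the parental line, VIM and CD44 among them, were detected on all arrays, while ESR1, PGR, CDH1, FOXA1 and KRT5, markers of luminal or basal epithelium, were detected on none, and GATA3 was detected on both knockdown arrays and on 1 control. Signals were background-corrected, quantile-normalised and put on the log2 scale. Genes were compared with limma across all 11276 genes detected on at least 2 arrays, and a gene is said to have risen or fallen where its Benjamini-Hochberg adjusted p was under 0.05. The log2 signal of TARBP2, the targeted gene, was 6.11 and 5.79 on the knockdown arrays and 9.27 and 9.25 on the control arrays, which gave -3.31 ± 0.11 (fold change and its standard error, limma adjusted p = 2.24e-10). The knockdown signals of this probe were dim, at 112.8 and 100.6, so the size of the fall depends on the background correction. With no background correction it was -2.63. The other TARBP2 probe gave -2.89. The groups are those named in the non-normalised table. The deposited series matrix carries them crosswise, and a sign taken from its labels would be opposite to those given here.

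EGR1 was the gene of the set that moved most, at 2.23-fold below its control level. FOS fell (log2 fold change -0.43, the least secure call) and MYC rose (0.34). The other 7 genes did not pass the test. All 11 probes were detected on all 4 arrays, with a detection p of at most 0.0026, so none was left out for low signal. Of the 10 genes 1 rose, where 17.0% of all genes tested rose, and 2 fell, where 17.1% of all genes fell. In either direction 3 of the 10 passed, beside 34.1% of all genes, a share near the background. Of all called genes 49.9% rose, against 66.2% with the arrays scaled to a common median, a scaling under which EGR1, FOS and MYC stayed called. At an unadjusted p under 0.05 it was 4 of 10, beside 43.9% of all genes. The median log2 fold change was -0.08 over the 10 genes and -0.01 over all genes, with 4 values above and 6 below 0. The groups did not overlap for 7 of the 10, beside 67.0% of all genes.

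**Figure D1:**
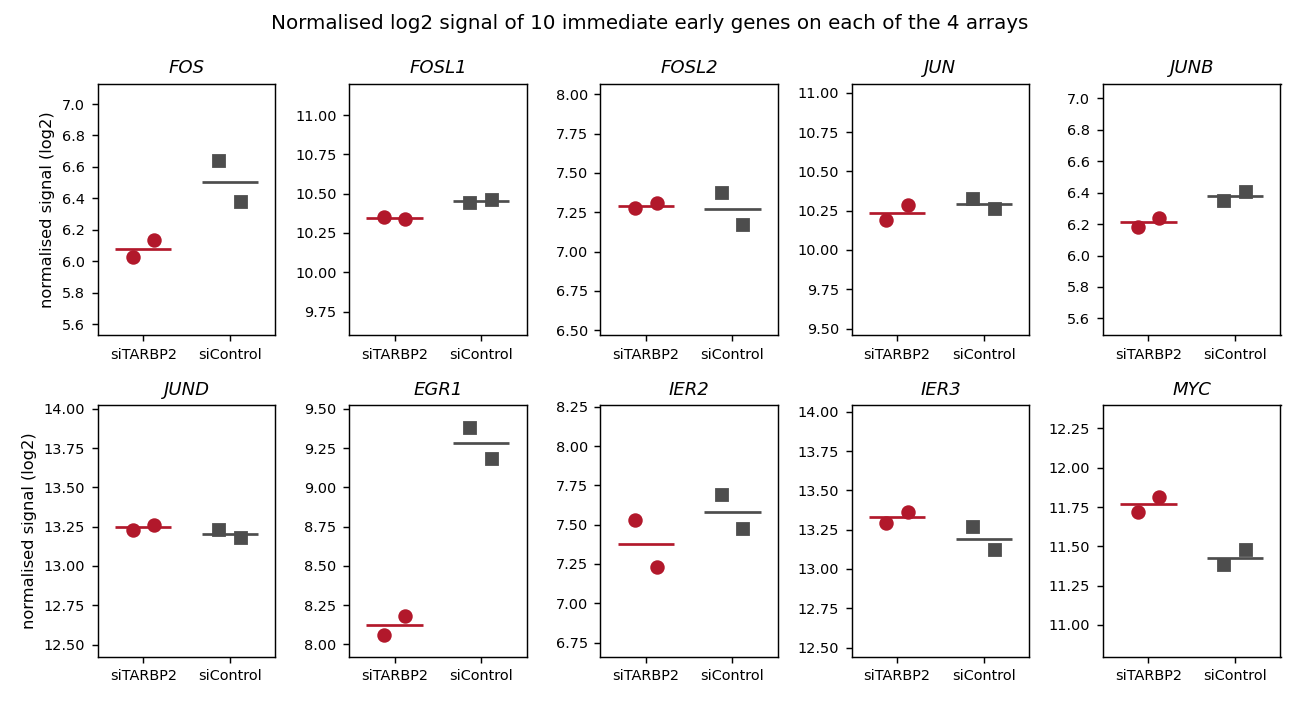
Normalised log2 signal of each gene on the 4 arrays, with siTARBP2 arrays (red circles, siTARBP2-1 left of siTARBP2-2) and siControl arrays (grey squares, siControl-1 left of siControl-2) and a line at each group mean. Every panel spans 1.6 log2 units but starts at its own level, since signals of different probes are not comparable. The gap between the groups is widest for EGR1, with 8.06 and 8.18 in knockdown against 9.38 and 9.18 in control.

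EGR1 is the zinc finger factor of the set, induced by mitogens in most cell types. Its probe, for NM_001964, gave signals of 311.2 and 347.1 with siTARBP2-1 and siTARBP2-2, against 704.7 and 606.9 in siControl-1 and siControl-2. On the normalised log2 scale these are 8.06 and 8.18 in knockdown against 9.38 and 9.18 in control. Both knockdown arrays lay below both controls, by far more than either pair differed. The knockdown mean was 8.12 ± 0.08 and the control mean 9.28 ± 0.14 (SD, n = 2 each). The difference was -1.16 log2 units (standard error 0.08, 95% interval -1.34 to -0.98), or 2.23-fold lower (limma adjusted p = 3.45e-07). It was the 19th largest fall over all genes, TARBP2 included, and one of 41 genes (0.364% of those tested) that passed and fell at least 2-fold, while 0 of the 10 were among the 0.479% that passed and rose at least 2-fold. Nothing here tells a change in transcription of EGR1 from a change in the stability of its message. The arrays measured steady levels at a single time.

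The promoter of EGR1 is shown because EGR1 is a textbook target of SRF and the ternary complex factors through CArG boxes, and SRF is among the genes described further on. FOS, which also fell, and JUN, which did not pass the test, are shown beside it. Each line is the 250 bases before the annotated start site, 5' to 3' on the gene's strand, from RefSeq on GRCh38.p14: EGR1 at chr5:138465229-138465478 on the plus strand, FOS at chr14:75278578-75278827 on the plus strand and JUN at chr1:58784048-58784297 on the minus strand. Capitals mark matches, on either strand, to the motifs searched.
EGR1: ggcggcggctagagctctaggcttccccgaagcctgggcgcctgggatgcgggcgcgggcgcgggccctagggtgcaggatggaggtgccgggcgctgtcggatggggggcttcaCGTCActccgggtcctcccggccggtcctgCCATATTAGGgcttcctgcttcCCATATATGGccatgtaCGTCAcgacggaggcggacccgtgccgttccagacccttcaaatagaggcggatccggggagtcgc
FOS: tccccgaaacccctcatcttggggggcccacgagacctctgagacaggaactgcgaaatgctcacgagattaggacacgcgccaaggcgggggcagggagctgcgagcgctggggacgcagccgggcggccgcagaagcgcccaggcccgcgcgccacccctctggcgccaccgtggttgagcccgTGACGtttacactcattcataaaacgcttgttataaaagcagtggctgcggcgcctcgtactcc
JUN: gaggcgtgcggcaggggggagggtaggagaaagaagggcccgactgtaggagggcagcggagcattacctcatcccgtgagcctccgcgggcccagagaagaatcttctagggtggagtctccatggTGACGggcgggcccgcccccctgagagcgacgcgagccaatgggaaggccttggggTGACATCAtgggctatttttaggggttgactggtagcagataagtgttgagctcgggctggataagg
The motifs were the CArG box, the cyclic AMP response element TGACGTCA and its part TGACG, the AP-1 site TGACTCA, its variant TGACATCA, the EGR1 sites GCGTGGGCG and GCGGGGGCG, and the E-box CACGTG. A match to TGACGTCA is also a match to TGACG, on both strands. A CArG box occurs in 1.14% of the 27305 promoters of the same length in the table.

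Promoter entries were matched by symbol for 7 of the 10 genes, all but FOSL1, IER3 and MYC. EGR1 held 2 CArG boxes, at -105 to -96 and at -83 to -74 from the start site, and none of the other 6 windows held one. Bases outside these windows of 250 were not searched, so a window without a match does not show that a gene lacks the motif. TGACG was found in all 7 windows, against 21.7% of all promoters, and lay at -64 to -60 in FOS. JUN held TGACATCA at -67 to -60, a variant found in 2.45% of promoters, and JUND held TGACGTCA at -200 to -193, found in 1.77%. TGACTCA, both EGR1 sites and CACGTG matched in none of the 7 windows; they occur in 4.16%, 0.71% and 4.68%, and 6.49% of all promoters. A match describes letters, not binding, and the arrays measured no binding.

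FOS, FOSL1 and FOSL2 encode the FOS side of AP-1, which binds DNA as a partner of a JUN protein. FOS was dim: its probe, for NM_005252, gave signals of 108.8 and 115.9 in knockdown against 140.2 and 125.6 in control. The log2 values were 6.02 and 6.13 with siTARBP2-1 and siTARBP2-2, against 6.64 and 6.38 in siControl-1 and siControl-2. Both knockdown arrays were lower than both controls, but the controls differed from each other by about as much as siControl-2 differed from the nearer knockdown array. The fold change was -0.43 (log2) with a standard error of 0.14 and a 95% interval of -0.72 to -0.13 (limma adjusted p = 0.0269). This call is the least secure of the 3. It ended without siTARBP2-1 (adjusted p = 0.139), without siTARBP2-2 (0.0714), without siControl-1 (0.199) and with no detection filter (0.115), all with a negative fold change.

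FOSL1, which encodes FRA-1, the FOS protein typical of mesenchymal breast cancer lines, read 10.35 and 10.34 in knockdown against 10.44 and 10.46 in control (log2, probe for NM_005438). The arrays of each group lay very close together and the groups did not overlap, yet the difference was only -0.11 with a 95% interval of -0.23 to 0.02 (limma adjusted p = 0.175). FOSL2, which encodes FRA-2, read 7.28 and 7.31 in knockdown against 7.37 and 7.17 in control, and its groups overlapped. Its difference was 0.02 with an interval of -0.19 to 0.24 (limma adjusted p = 0.881). These intervals leave room for modest changes of either gene but not for a change as large as that of EGR1.

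The JUN side of AP-1, which can also pair with itself, showed no call. JUN read 10.19 and 10.28 in knockdown against 10.33 and 10.26 in control, groups that overlapped, with a difference of -0.06 and a 95% interval of -0.19 to 0.08 (limma adjusted p = 0.523). JUNB, often a weaker activator than JUN, was dim, at 6.18 and 6.24 in knockdown against 6.35 and 6.41 in control. Its groups did not overlap, and the difference of -0.16 had an interval of -0.44 to 0.11 (limma adjusted p = 0.343). JUND, the JUN gene least dependent on growth signals, read 13.23 and 13.26 in knockdown against 13.23 and 13.18 in control, or 0.04 with an interval of -0.06 to 0.14 (limma adjusted p = 0.532). With the arrays scaled to a common median the fold change of JUN was 0.012, and without siControl-2 that of FOSL2 was -0.077, so neither direction is settled.

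**Figure D2:**
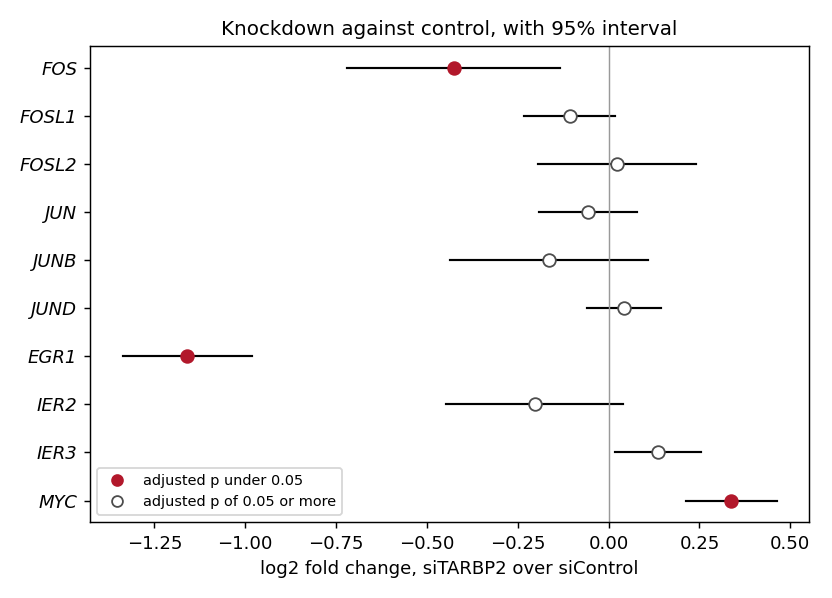
Log2 fold change of each gene, siTARBP2 over siControl, with its 95% interval from limma. Filled points passed the test: EGR1 at -1.16, FOS at -0.43 and MYC at 0.34, while the intervals of FOSL1, FOSL2, JUN, JUNB, JUND and IER2 include 0.

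IER2 encodes a short-lived nuclear protein induced by growth factors, and IER3 a small stress-inducible protein linked to cell survival. On the log2 scale IER2 was at 7.53 (siTARBP2-1) and 7.23 (siTARBP2-2), while siControl-1 and siControl-2 gave 7.69 and 7.47. The groups overlapped, because the siTARBP2-1 array lay between the controls and the siTARBP2-2 array lay below both. The difference was -0.20 with a 95% interval of -0.45 to 0.04 (limma adjusted p = 0.185). IER3 read 13.29 and 13.36 in knockdown against 13.26 and 13.12 in control. The knockdown arrays were slightly above both controls, by 0.14 with an interval of 0.02 to 0.25, which did not pass after adjustment (limma adjusted p = 0.0721). Without siControl-1, the higher control, IER3 gave 0.21 (adjusted p = 0.0305).

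MYC, whose product drives ribosome production and growth, was the member of the set that rose. The probe that stood for it, for NM_002467, gave signals of 3421.3 and 3745.5 in knockdown against 2692.9 and 2834.4 in control. On the log2 scale it read 11.72 and 11.81 with siTARBP2-1 and siTARBP2-2, against 11.38 and 11.48 in siControl-1 and siControl-2. Both knockdown arrays were above both controls. The difference was 0.34 with a standard error of 0.06 and a 95% interval of 0.21 to 0.46, or 1.26-fold higher (limma adjusted p = 5.75e-04). The other MYC probe read 11.76 and 11.75 in knockdown against 11.21 and 11.51 in control and gave 0.39 (standard error 0.08, limma adjusted p = 0.00169 over all probes). Both probes match the same accession, and they differed by less than their errors. MYC is an ordinary rise for these arrays, the 1021st largest among 1921 genes that rose.

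In the authors' deposited table, whose log fold changes are on a scale that compresses low signals, EGR1 stands at -0.89 and FOS at -0.15. MYC stands at 0.38 in the authors' deposited table and is the only gene of the set that it marks as up-regulated; 3.12% of its 39747 accessions carry the mark. The same table gives IER3 at 0.15, JUND at 0.05, FOSL2 at 0.01, JUN at -0.05, JUNB at -0.06, and FOSL1 and IER2 both at -0.11. The authors' deposited table comes from the same arrays, so it is another processing of these data.

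Each siRNA was then set against the 2 controls, and both comparisons share those controls. A lone array is assumed here to vary like the controls. For EGR1 the values were -1.22 (siTARBP2-1) and -1.10 (siTARBP2-2), both (standard error 0.10, limma adjusted p = 1.49e-05 and 2.67e-05). MYC gave 0.29 with siTARBP2-1 and 0.38 with siTARBP2-2 (standard error 0.06, limma adjusted p = 0.00689 and 0.00132). These were the 2 genes of the set called with each siRNA, 1 lower and 1 higher, beside 12.3% lower and 12.5% higher of all genes with siTARBP2-1 and 13.6% in each direction with siTARBP2-2. Without a variance trend MYC passed with neither siRNA alone. In either direction these are 24.8% and 27.2% of all genes. FOS gave -0.48 and -0.37 and passed with neither alone (limma adjusted p = 0.0685 and 0.144).

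Between the siRNAs none of the 10 genes differed past the threshold (limma), and none had an unadjusted p under 0.05; 0.0177% of all genes passed and 5.79% had an unadjusted p under 0.05. The difference for EGR1, siTARBP2-1 minus siTARBP2-2, was -0.12 with a 95% interval of -0.37 to 0.14. For MYC it was -0.09 with an interval of -0.25 to 0.07, and for FOS -0.11 with an interval of -0.56 to 0.34. The largest was that of IER2, which gave -0.05 with siTARBP2-1 and -0.35 with siTARBP2-2, a difference of 0.30 with an interval of -0.02 to 0.62 (limma adjusted p = 0.857). These intervals do not show that the siRNAs act alike on any of the 4 genes.

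**Figure D3:**
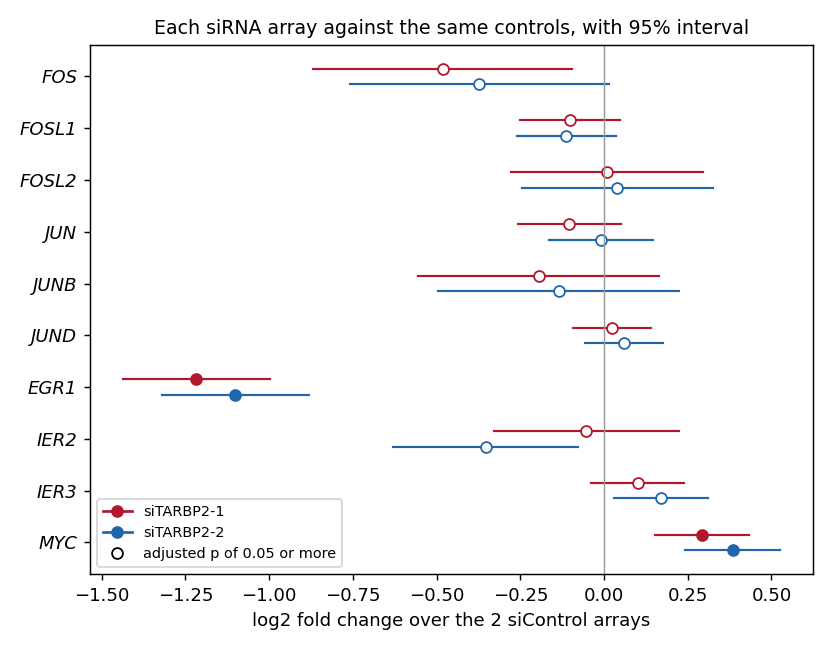
Log2 fold change of each gene with siTARBP2-1 (red) and with siTARBP2-2 (blue) over the same 2 siControl arrays, with 95% intervals from the fit with 3 groups. Open points did not pass. EGR1 lies at -1.22 and -1.10 and MYC at 0.29 and 0.38, and the 2 siRNAs lie farthest apart for IER2.

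Among the genes whose values over the 4 arrays lay nearest to those of EGR1, each centred on its own mean, were FGFR3, a fibroblast growth factor receptor, and RNF6, a ubiquitin ligase. Their Euclidean distances from EGR1 were 0.11 and 0.13 log2 units over 4 arrays. FGFR3 read 5.99 and 6.02 in knockdown against 7.18 and 7.10 in control, and gave -1.14. RNF6 read 5.87 and 5.99 in knockdown. Both were dim there, at a level where the size of a fold change depends on the background correction. With only 4 arrays such a likeness says little more than that the fold changes are alike.

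The lists that follow hold the partners, regulators and targets of the set. They were chosen with earlier results of these data known, so no weight is put on a share above or below that of all genes. Other AP-1 and related leucine zipper factors mostly did not pass: of 14 measured of 16 listed, 1 rose and 3 fell, 28.6% of them beside 34.1% of all genes, with a median of -0.15 beside -0.01 over all genes. ATF2, a JUN partner, gave -0.42 (limma adjusted p = 0.00375). ATF3, a stress-induced factor, gave -0.31 (0.00313), and CREB5 rose by 0.33 (0.00187). FOSB, the remaining FOS gene, gave -0.14 and did not pass (limma adjusted p = 0.47); it is named after its value was seen.

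Other immediate early genes moved both ways. Of 22 measured of 28 listed, 7 rose and 3 fell, 45.5% of them beside 34.1% of all genes, with a median of 0.05. Without siControl-1 4 rose. SGK1, a kinase induced by serum and glucocorticoids, rose by 0.57 (limma adjusted p = 8.60e-06). TRIB1, a pseudokinase scaffold, rose by 0.47 (1.75e-04) and CSRNP1, a nuclear factor, by 0.43 (2.58e-04). EGR2, the nearest relative of EGR1 that was measured, was dim, with signals of 93.1 and 104.8 in knockdown against 109.2 and 112.5 in control. It gave -0.34 and did not pass (limma adjusted p = 0.101). EGR3 and EGR4 were detected on no array. These 3 genes are named after their values were seen.

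**Figure D4:**
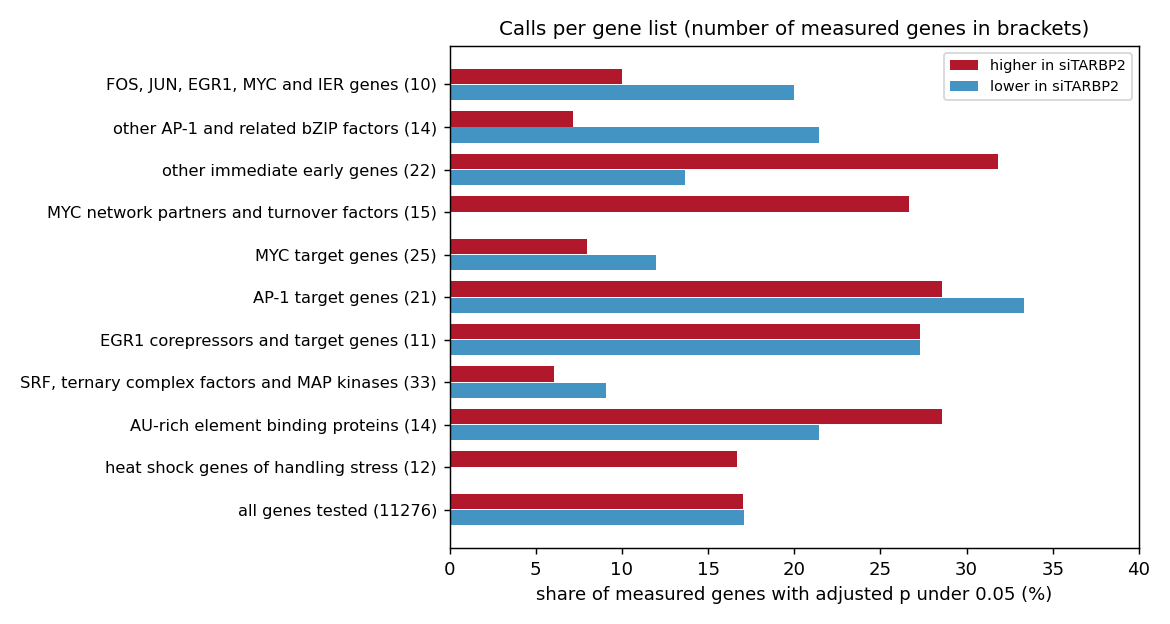
Share of the measured genes of each list that rose (red) or fell (blue) in siTARBP2 against siControl, with the shares over all 11276 genes in the lowest row. Among all genes 17.0% rose and 17.1% fell; among the genes of the MYC network 4 of 15 rose and 0 fell.

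Among partners and turnover factors of MYC 4 of 15 measured rose and 0 fell (limma), 26.7% of them beside 34.1% of all genes, with a median of 0.03; 18 were listed. The number that fell was 1 without siTARBP2-1 and 1 without siTARBP2-2. MAX itself, named after its values were seen, did not pass by the probe that stood for it, at 0.08, but another of its 3 detected probes gave -0.51 (limma adjusted p = 0.00353 over all probes), so its probes disagree. MXD1, MNT and MXD4, which compete with MYC for MAX and repress its targets, rose by 0.53, 0.32 and 0.26 (limma adjusted p = 1.29e-04, 0.00416 and 0.00494). The remaining one was PIM1, a kinase, at 0.27 (limma adjusted p = 0.0147), named after its value was seen. Of the MYC target genes 2 of 25 measured rose and 3 fell, which is 20.0% of them beside 34.1% of all genes, with a median of 0.02. SRM, the spermidine synthase, rose by 0.22 and FBL, the nucleolar fibrillarin, by 0.16 (limma adjusted p = 0.00876 and 0.0321). CCND2, which encodes cyclin D2, gave -0.26 (0.00573). The split of the list is not settled: 3 rose and 0 fell with median scaling, 2 rose and 0 fell without siControl-1, and 0 rose and 1 fell without siControl-2 or without a variance trend. The number that fell was also 1 without siTARBP2-1. The calls of all 3 named genes ended under some alternatives: FBL without a variance trend (adjusted p = 0.123), SRM there (0.0521) and CCND2 with median scaling (0.0710).

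AP-1 target genes changed in both directions. Of 21 measured of 25 listed, 6 rose and 7 fell, 61.9% of them beside 34.1% of all genes, with a median of 0.06. Without a variance trend 3 rose. MMP3, a stromelysin, read 7.09 and 6.83 in knockdown against 5.68 and 5.71 in control, a rise of 1.27 (standard error 0.13, limma adjusted p = 9.87e-06). Its probe was dim, with signals of 180 and 161.9 in knockdown against 92.8 and 95.8 in control. Near background the size of a fold change depends on the background correction. IL6, a cytokine that these cells make in quantity, rose by 0.61 (1.15e-06). IL11, a cytokine of the same family, read 7.77 and 7.81 in knockdown against 8.73 and 8.63 in control and gave -0.89 (2.26e-06). Many of these genes also answer to NF-kB or TGF-beta, so the list is not specific to AP-1.

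Corepressors and targets of EGR1 split evenly, with 3 of 11 measured higher and 3 lower, 54.5% of them beside 34.1% of all genes, a median of -0.02 and 14 listed. NAB1, the corepressor that binds EGR1, read 9.64 and 9.73 with siTARBP2-1 and siTARBP2-2, against 10.58 and 10.54 in the controls. Both knockdown arrays were far below both controls, and NAB1 gave -0.87 (standard error 0.06, limma adjusted p = 3.67e-07). Its relative NAB2, itself induced by EGR1, gave -0.26 and did not pass (limma adjusted p = 0.0588); it is named after its value was seen. PDGFB, a growth factor chain, rose by 1.09 with a standard error of 0.10 (2.75e-06). PLAU, the urokinase gene, gave -0.31 (2.68e-04) and stands in both target lists.

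**Figure D5:**
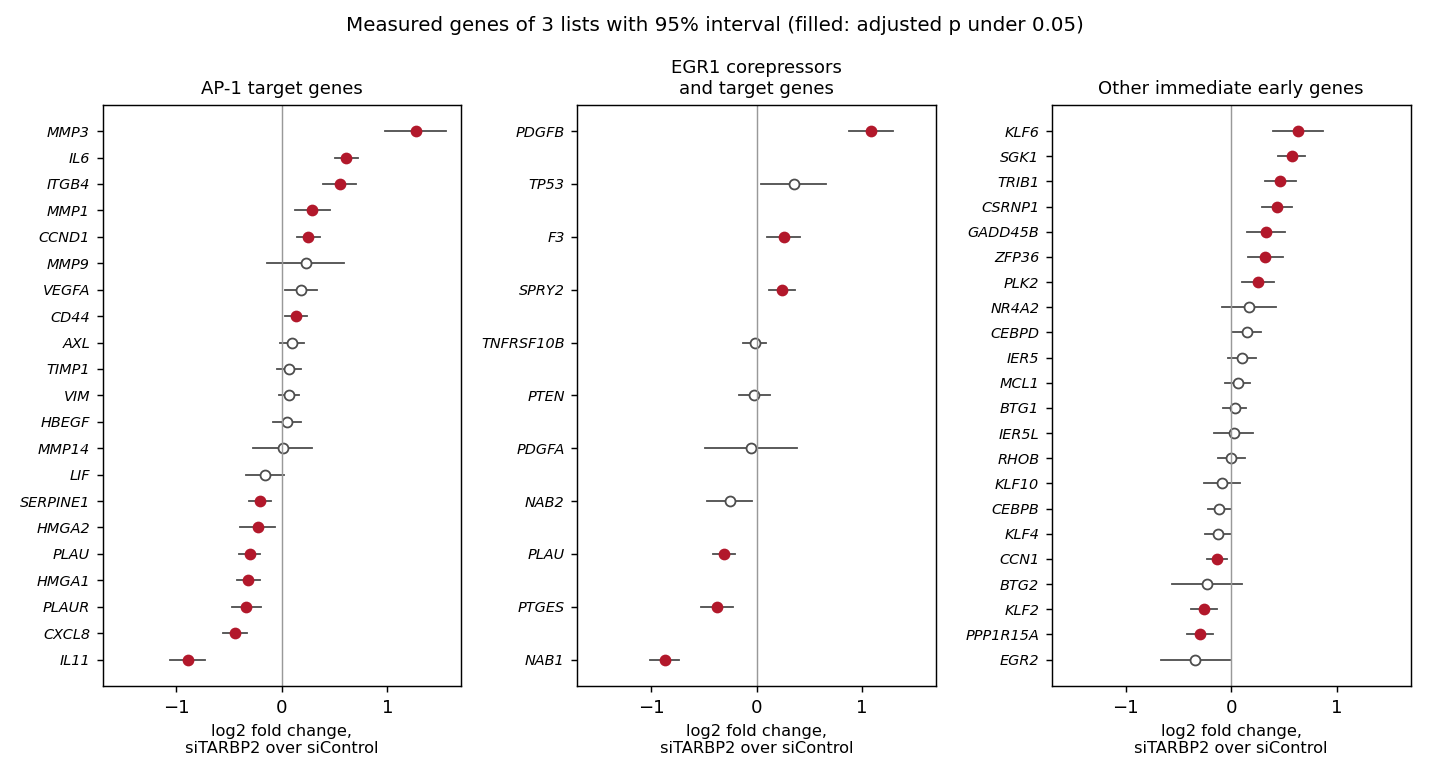
Log2 fold changes, siTARBP2 over siControl, of the measured genes of 3 lists with 95% intervals, where filled points passed the test. In each list points lie on both sides of 0, from MMP3 at 1.27 to IL11 at -0.89 among AP-1 targets and from PDGFB at 1.09 to NAB1 at -0.87 among genes tied to EGR1.

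Upstream of the set, SRF and the genes of the MAP kinase cascade were seldom called. Of 33 measured of 35 listed 2 rose and 3 fell, 15.2% of them beside 34.1% of all genes, with a median of 0.03, and 1 rose without siTARBP2-1, without siControl-1 or without a variance trend. SRF itself read 11.19 and 11.08 in knockdown against 10.68 and 10.60 in control, a rise of 0.49 (standard error 0.06, limma adjusted p = 4.33e-05). ELK3, a ternary complex factor that often represses, gave -0.45 (9.85e-04). MRTFB, an actin-regulated cofactor of SRF, gave -0.56 (7.78e-04). The detected probes of ELK4, also of this list, disagree, with -0.98, 0.51 and 0.20. Their limma adjusted p over all probes was 8.12e-05, 0.00869 and 0.159. ELK4 is named after its values were seen. SRF was higher, and ELK3 and MRTFB lower, on the same arrays on which EGR1, a gene with CArG boxes, was lower. A link between these changes was not tested. Levels of phosphorylated kinases or factors were not measured.

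Proteins that bind AU-rich elements, which mark many immediate early messages for decay, moved both ways, with 4 of 14 measured higher and 3 lower, 50.0% of them beside 34.1% of all genes, a median of -0.01 and 15 listed. The number lower was 1 with median scaling, without siControl-2 or without a variance trend. ZFP36L1, a decay factor of the tristetraprolin family, rose by 0.46 (limma adjusted p = 4.48e-05). PABPC1, which binds the poly(A) tail and is listed for its place in decay, rose by 0.34 (2.43e-04). IGF2BP3, which shields messages from decay, read 10.21 and 10.32 in knockdown against 10.78 and 11.04 in control and gave -0.65 (3.14e-05).

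Immediate early genes also answer to handling and stress of a culture. Of 12 heat shock genes, all measured, 2 rose and 0 fell (limma), 16.7% of them beside 34.1% of all genes, with a median of -0.06. The number that fell was 1 without siTARBP2-1 and 1 without siControl-2, and the number that rose was 1 without siControl-2. BAG3, a cochaperone, rose by 0.37 (limma adjusted p = 5.69e-04). HSPA1B rose by 0.32 (limma adjusted p = 0.00505), and its fold change without siControl-2 was 0.18. HSPA1A gave -0.19 and did not pass (limma adjusted p = 0.0964). The genes are nearly identical in sequence, yet their probes gave opposite signs. Which of the genes each probe reads was not tested. Of 7 blood cell markers 5 were detected on no array, with PTPRC, LYZ, CD3E and HBB among them, and CD14 at 0.21 and ITGAM at 0.17 did not pass (limma adjusted p = 0.0698 and 0.614). The summed signal of the 7, before background correction and normalisation, was 742.2 and 712.4 in knockdown against 668.3 and 680.6 in control. Probes detected on no array add their background to such a sum, so it does not measure cell numbers. Of 7 endothelial and fibroblast markers 3 were measured, and CDH5, DCN and PDGFRA were detected on no array. LUM rose by 0.44 and ACTA2 by 0.26 (limma adjusted p = 0.0271 and 0.0338), while PECAM1 gave -0.08 and did not pass (0.694). Neither rise held with no detection filter, where ACTA2 had 0.128, or without siTARBP2-2, siControl-1 or siControl-2. Summed over the 7 markers, the signal was 740.1 and 756.1 in knockdown against 645.6 and 661.3 in control. This sum too was taken before background correction and normalisation and includes the background of undetected probes. Of 8 markers of the line 5 rose, but 3 without siTARBP2-1, without siTARBP2-2, without siControl-1 or with median scaling, and 2 with no detection filter or no variance trend. EGFR, a receptor upstream of the MAP kinases, gave 0.77 by the probe that stood for it (limma adjusted p = 2.14e-06) and 0.34 by its other detected probe, which did not pass (limma adjusted p = 0.0564 over all probes). The part of any of these in the results for EGR1, FOS and MYC was not tested.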

How the data were processed

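RNA of 4 samples, 2 of TARBP2 knockdown and 2 of siControl transfection, was measured on Illumina BeadChips, 1 sample an array, and grouped by the transfection label. The authors deposited signal intensity before normalization, and, per the file headers, the detection p-value of each signal. A deposited series matrix holds normalized intensity and another deposited file gives a log fold change per accession (entered as log2; the authors state no base) with an up-regulated mark. The submitters' processing notes name lumi, without a version.

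No probe annotation was used. The deposited fold changes equal group differences of an inverse hyperbolic sine of the series matrix with its groups crossed (33125 values matched within 1e-09, against 16 with groups as labelled). Probes were joined to accessions by these values, 33129 accessions to 1 probe and 6208 to 2 to 4 neighbouring probes; values shifted by 1e-06 joined 18 and 24. RefSeq's gene table (GRCh38.p14) named them. Column correlations also paired each series matrix column with the array of the opposite group.

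R 4.3.3 and limma 3.58.1 were used, with neqc (offset 16) for normalization. Probes with detection p under 0.01 on at least 2 arrays were kept, and each gene was represented by its brightest probe. limma (lmFit, eBayes with trend, two-sided) was adjusted by Benjamini-Hochberg over 11276 genes, with 3 groups for single siRNAs. It was tested on simulated data. An exact permutation of 2 against 2 arrays cannot go below p = 0.333, so calls rest on the shared variance model. Genes named are the 10 members, TARBP2, the 3 smallest p of each list with any gene that passed at 2-fold or more, and the 3 nearest to EGR1; some of these are not reported here. Members and lists were chosen with earlier results of these data known. Same-numbered arrays did not deviate together (r = 0.005 across genes), so no pairing was used. Alternatives covered normalization, background, detection filter, probe choice, variance model, replicate block, each array left out and the series matrix.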

Additional observations from a re-analysis of the deposited data

How the results depend on the processing

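Under the 15 alternatives that keep the groups of the non-normalized table, EGR1 stayed called, between -1.26 and -1.05, and MYC stayed called, between 0.24 and 0.39. FOS stayed negative, between -0.56 and -0.26, and lost its call in 4. With the series matrix taken as labelled, TARBP2 turned to 2.57, since that table carries the groups crosswise. JUN turned to 0.012 with median scaling; FOSL2 lay between -0.077 (without siControl-2) and 0.124 with single arrays left out; neither passed. With single arrays left out TARBP2 lay between -3.47 and -3.14, the count of set members that rose between 1 and 2, and the count that fell between 1 and 2 (1 without siTARBP2-1, without siTARBP2-2 or without siControl-1). All genes that fell then numbered 1229 to 1533 and all that rose 1340 to 1468, against 1929 and 1921, with fewer samples. Listed genes outside the set numbered 24 to 29 higher and 16 to 21 lower, against 30 and 24. With no detection filter 1 member fell. With median scaling 1144 genes fell in all, 66.2% of calls were higher against 49.9%, and 15 listed genes outside the set fell; the cause was not tested. With siTARBP2-2 alone 2 members fell with cyclic loess and where probes of a gene were averaged. Without a variance trend the count of members that rose was 0 with each siRNA. The replicate block gave 1924 genes higher and 1950 lower, with 1 member higher and 2 lower, and changed no call of a member. FOS and JUNB lie close to background, where small changes are least certain.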
